A study of Homo sapiens with 6 samples.

Results

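MSH6, MLH3, PMS1, PMS2, EXO1 and MSH5 are the genes that share the mismatch repair pathway, or its meiotic branch, with MSH3, the MutSβ subunit gene whose transcript is higher in these methotrexate (MTX)-resistant cells. The question was whether the higher MSH3 level came with changes of the other MutS and MutL genes. Each probe set annotated to one of the 6 genes was taken, 16 of 54613 probe sets that were not controls, without regard to its value. Of these 16, 12 were bright enough to be tested, among 26563 tested in all.

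Caco2, an established line from a human colon cancer, was profiled on Affymetrix HG U133 Plus 2.0 arrays. Parental cells, sensitive to MTX and grown in Ham's F12 medium with fetal bovine serum, gave 3 arrays. Cells resistant to 10 µM MTX, obtained by stepwise selection and kept in a medium without glycine, hypoxanthine or thymidine and with dialyzed serum, gave the other 3. Selection with the drug and medium therefore changed together, and their effects cannot be told apart. Whether MTX was present when RNA was taken is not stated in the sample titles or the study's methods. Nothing states that the triplicates were separate cultures, and p-values therefore reflect the spread between these arrays, which may be technical.

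Mismatch repair corrects bases and loops that DNA polymerases leave behind at replication. A MutS complex recognises the mismatch, with MSH6 in the form that binds base mismatches and short loops (MutSα) and MSH3 in the form that binds larger insertion-deletion loops (MutSβ). A MutL complex, with PMS2, PMS1 or MLH3 as its variable subunit, is then recruited, and EXO1 removes the new strand for resynthesis. MSH5 serves meiotic crossing over with MSH4 rather than repair. In the colon this pathway is known for Lynch syndrome and for the microsatellite instability of tumours that have lost it.

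The promoters of MSH6 and PMS1 are shown because these were the members with a probe set that rose. Each is the 250 bases before the RefSeq start on the plus strand of GRCh38.p14, chr2:47782895-47783144 for MSH6 and chr2:189784200-189784449 for PMS1. Capitals mark GC boxes (GGGCGG) and CCAAT boxes (CCAAT), on either strand.
MSH6: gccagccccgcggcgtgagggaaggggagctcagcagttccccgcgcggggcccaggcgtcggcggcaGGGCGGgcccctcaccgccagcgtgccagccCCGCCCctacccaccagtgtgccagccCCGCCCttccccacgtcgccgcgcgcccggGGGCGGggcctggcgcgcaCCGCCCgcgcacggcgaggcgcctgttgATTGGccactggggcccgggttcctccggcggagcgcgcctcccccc
PMS1: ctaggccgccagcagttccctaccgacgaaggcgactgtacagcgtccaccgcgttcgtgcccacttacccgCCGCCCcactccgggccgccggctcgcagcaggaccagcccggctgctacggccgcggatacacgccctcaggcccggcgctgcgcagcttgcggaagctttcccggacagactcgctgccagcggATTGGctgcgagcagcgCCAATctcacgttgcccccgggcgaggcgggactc
Motifs were counted on both strands from 250 bases before to 50 after the start. MSH6 held 5 GC boxes and 1 CCAAT box, and PMS1 held 1 GC box and 2 CCAAT boxes. Over 27305 RefSeq promoters of that length, 44.5% held a GC box and 35.7% a CCAAT box. An E2F element (TTTCCCGC, TTTGGCGC or TTTCGCGC) was found in 2.79% of them. MSH6 held 1 such element, TTTCCCGC, from base 4 after the start, and EXO1 held 1, TTTCGCGC, from base 5, neither overlapping another motif. PMS1, PMS2, MLH3 and MSH5 had none in this window. These matches describe the sequence and are not known here to be bound.

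Levels below are signals divided by the median signal of their array, which was 10.6 to 12.8. They can be compared between arrays but not between probe sets. Changes are log2 ratios of resistant to parental cells ± SE (n = 3 arrays per group), with adjusted p-values from limma over all 26563 probe sets. The words rose and fell are kept for an adjusted p below 0.05.

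The arrays of a group were alike, with r of 0.968 to 0.971 within resistant, 0.946 to 0.966 within parental and 0.914 to 0.939 between groups, across probe sets, which are not independent. Parental array 3 stood out by its signal for 18S ribosomal RNA (5' probe set), 1799.8 against 56.8 to 374.7 on the others, while the 3'/5' ratio of GAPDH was 0.904 to 0.987 on all 6. Of 10 colon epithelium markers, 8 had a mean of at least the array median. The summed level of all 10 was 1260 to 1751 on parental and 2168 to 2290 on resistant arrays. CDX1 and CDX2 were not among these 8. Of the fibroblast, leukocyte and endothelium markers 2 of 7, 2 of 4 and 1 of 5 annotated ones had a mean over all arrays of at least the array median. Sums over all annotated ones, dim ones included, were at most 9.39, 22.4 and 4.17. Among the dim ones, PTPRC and COL3A1 stayed below the array median on all arrays. CD3E, DCN, FAP and VWF did not, with highest values of 1.42, 1.23, 1.20 and 1.19 times the median. The fibroblast sum was 5.84 to 6.28 on parental and 8.51 to 9.39 on resistant arrays. LUM rose from 0.20, 0.35 and 0.27 times the median, which is too dim for a fold, to 3.27, 2.92 and 1.5, while COL1A1 was at -0.15 ± 0.18 (adjusted p = 0.633). The leukocyte sum was 10.96 to 22.4 on parental and 9.24 to 12.1 on resistant arrays, where LAPTM5 fell (-0.91 ± 0.25, adjusted p = 0.0468) and CD14 was at -0.13 ± 0.33. The part of these markers in the results was not tested.

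MSH3 was higher on each of its 3 probe sets, which sets the scale for the partners. On the brightest, its level was 8.28, 9.46 and 9.37 on the parental and 71.7, 76.7 and 74.5 on the resistant arrays, 8.23-fold (3.04 ± 0.13). Its other probe sets changed by 2.00 ± 0.24 and 4.56 ± 0.93. The last of these lay below the array median on all parental arrays, and with 0.5 times the median added to each level before the log its change was 2.27.

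Among the partners, MSH6 and PMS1 rose and no member fell. Of the 12 tested member probe sets 3 rose, 2 of MSH6 and 1 of PMS1, where 5.75% of all tested probe sets rose and 4.27% fell. Both of MSH6 also rose by at least 2-fold, where 2.77% of all did. The 3 resistant arrays lay above the 3 parental ones for the same 3 member probe sets (17.7% of all tested) and below them for 2, of PMS1 and of PMS2 with PMS2CL (14.4% of all). By gene, 4 members had a tested probe set annotated to them alone. Of these 4, 2 rose, where 7.37% of the 11849 genes rose and 5.05% fell.

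**Figure D1:**
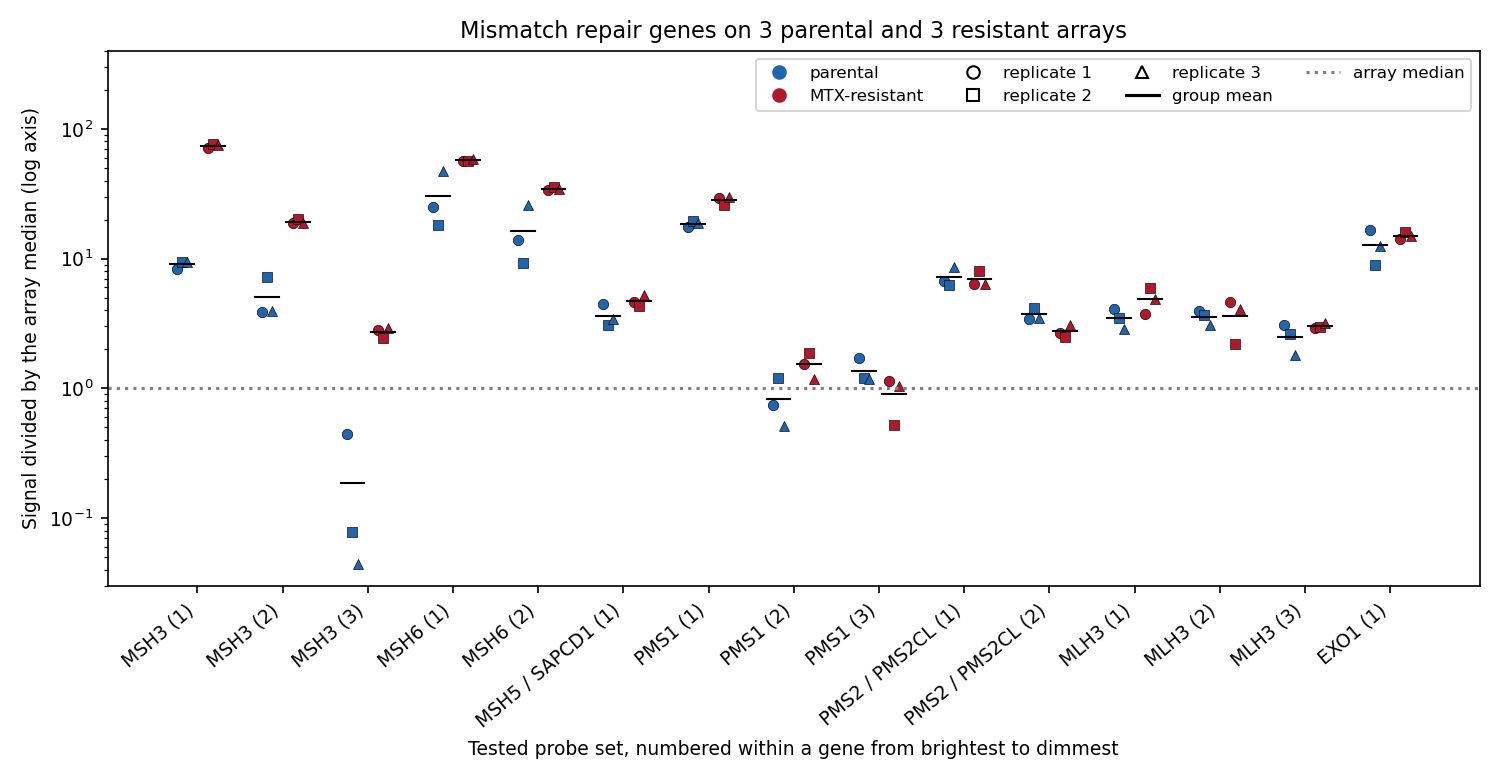
Signal divided by the array median (log axis) for the 15 tested probe sets of MSH3 and its partners, as points for 3 parental (blue) and 3 MTX-resistant (red) arrays, with symbols for replicate numbers and bars for group means. MSH3 separates widely, MSH6 has parental array 3 near the resistant arrays, and most MutL probe sets overlap.

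MSH6, the mismatch-binding subunit of MutSα, had a level of 24.8, 18.1 and 47.5 on parental arrays 1, 2 and 3 and of 57.0, 56.8 and 58.9 on resistant arrays 1, 2 and 3. The groups did not overlap, but parental array 3 stood near the resistant arrays and far from the other parental ones. The change was 2.08-fold (1.05 ± 0.28, 95% confidence interval 0.42 to 1.69, adjusted p = 0.0447). On its second probe set the levels were 13.9, 9.31 and 25.9 against 34.0, 35.7 and 34.2. This was 2.31-fold (1.21 ± 0.30, adjusted p = 0.0328), with the same order of arrays. The correlation of both probe sets over the 6 arrays was 0.997. The remaining MSH6 probe sets lay below the array median on all 6 arrays, at 0.18 to 0.95 and 0.04 to 0.13 times the median, and were not tested.

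The size of the MSH6 change depended on parental array 3. That array lay above the mean of parental arrays 1 and 2 by 1.16 and 1.19 on the log2 scale for the 2 bright probe sets. Resistant arrays exceeded parental array 3 by 0.28 and 0.42, and parental arrays 1 and 2 by 1.44 and 1.61. Without parental array 3 the brightest probe set changed by 1.44 (adjusted p = 3.92e-05), whereas without parental array 2 it changed by 0.75 (adjusted p = 0.106). The call was also lost without parental array 1 (0.97) and without resistant array 1, 2 or 3 (1.06, 1.06 and 1.04). In all it was lost in 10 of 16 alternative settings, with adjusted p-values from 3.92e-05 to 0.252, and the direction in none.

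MSH5 has no probe set of its own. The one that names it also names SAPCD1 and the readthrough transcript MSH5-SAPCD1, and its level was 4.45, 3.05 and 3.42 on the parental and 4.67, 4.30 and 5.28 on the resistant arrays. The groups overlapped, with parental array 1 above resistant array 2. Its change was 0.40 ± 0.20 (interval -0.06 to 0.85, adjusted p = 0.245). MSH4 and the other meiotic crossover genes listed with MSH5 were all below the brightness needed for a test, 0 of 9 annotated genes having passed.

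PMS1, a MutL subunit whose part in repair is little defined, rose on its brightest probe set. The level was 17.4, 19.5 and 18.8 on the parental and 29.4, 26.0 and 29.7 on the resistant arrays. No resistant array came within the parental range, and parental array 3 was in the middle of its group. This gave 1.52-fold (0.61 ± 0.14, interval 0.30 to 0.91, adjusted p = 0.0219). The call was lost in 8 of 16 alternatives, among them those without parental array 1 and without resistant array 1, 2 or 3, with adjusted p-values up to 0.118 and changes of 0.52 to 0.67.

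The other PMS1 probe sets were close to the array median and did not share one direction. One of them read 0.75, 1.21 and 0.51 on the parental and 1.54, 1.87 and 1.19 on the resistant arrays (0.96 ± 0.45, adjusted p = 0.207). Another read 1.71, 1.20 and 1.18 against 1.14, 0.52 and 1.04 (-0.66 ± 0.45, adjusted p = 0.383), with the resistant arrays below the parental ones. The last 2 fell under the filter, at 0.07 to 1.31 times the median. A name ending in _x_at or _s_at was taken to mark probes shared with other transcripts. The lower-reading probe set, the 2 brightest MLH3 ones and the second MSH3 one end in _x_at. The brightest PMS1 probe set, which rose, ends in _s_at, as do the second MSH6, the brightest MSH3, the dimmest MLH3 and the MSH5 one.

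PMS2, the nuclease subunit of the main MutL complex, could not be read apart from PMS2CL, a pseudogene-like copy named by both of its probe sets. On the brighter, the level was 6.75, 6.27 and 8.60 on the parental and 6.39, 7.98 and 6.38 on the resistant arrays. The groups overlapped throughout, and the change was -0.05 ± 0.19 (interval -0.47 to 0.36, adjusted p = 0.878). On the other the levels were 3.44, 4.19 and 3.51 against 2.66, 2.47 and 3.10. Here all resistant arrays were lower, but the change did not pass the test (-0.44 ± 0.20, interval -0.89 to 0.02, adjusted p = 0.201). Of 6 further PMS2-derived genes with a probe set, 5 were tested and 0 passed, with a median of 0.01 against 0.02 over all genes. PMS2P1 changed by -0.38 ± 0.17 and PMS2P5 by -0.25 ± 0.22, the largest of these values. At an unadjusted p below 0.05 the count was also 0, where 2051 of all 11849 genes were higher and 1597 lower.

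MLH3, the MutL subunit also used in meiotic crossing over, did not pass the test on any of its 3 probe sets. The brightest read 4.08, 3.47 and 2.85 on the parental and 3.76, 5.95 and 4.92 on the resistant arrays (0.48 ± 0.23, interval -0.03 to 0.99, adjusted p = 0.210). Resistant array 1 was within the parental range. The next read 3.92, 3.70 and 3.11 against 4.62, 2.21 and 4.06 (-0.04 ± 0.28, adjusted p = 0.944), and the dimmest 3.07, 2.62 and 1.81 against 2.93, 2.97 and 3.17 (0.30 ± 0.25, adjusted p = 0.463). Parental array 3 was the lowest parental array on all 3, opposite to its place in MSH6.

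EXO1, the exonuclease of the excision step, read 16.5, 8.98 and 12.5 on the parental and 14.2, 16.1 and 14.8 on the resistant arrays. The resistant arrays lay inside the parental range. Its change was 0.29 ± 0.21 (interval -0.18 to 0.77, adjusted p = 0.413). The wide spread of the parental arrays leaves increases of up to 1.70-fold within the interval.

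**Figure D2:**
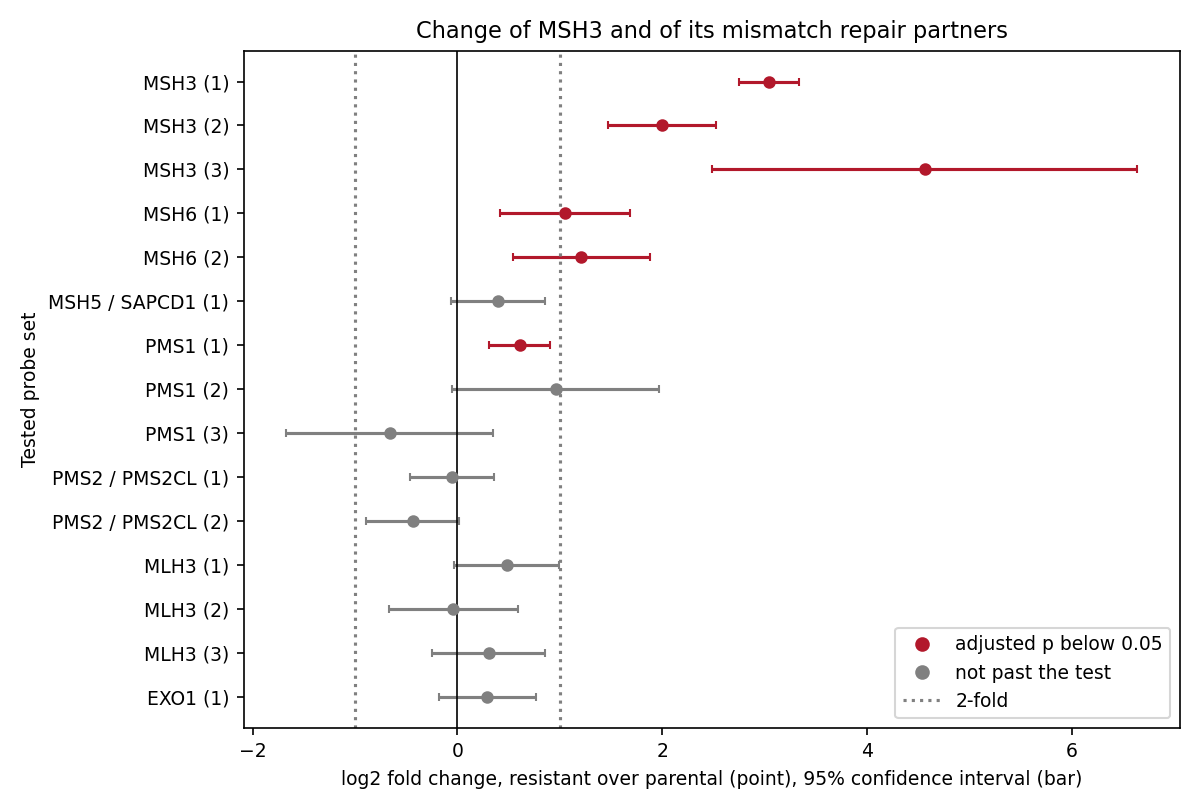
Change of each tested probe set, as the log2 ratio of resistant to parental cells (points), with its 95% confidence interval (bars), red where the adjusted p was below 0.05 and grey otherwise. MSH3 lies at 2.00 to 4.56, MSH6 at 1.05 and 1.21, PMS1 at 0.61 on its brightest probe set, and the intervals of the other partners include 0.

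The distance between the change of MSH3 and that of each partner was read on the same arrays, as a description, since MSH3 was set beside them for its known rise. The MSH3 change exceeded that of MSH6 by 1.99 ± 0.41 (interval 0.86 to 3.12) and that of PMS1 by 2.43 ± 0.09, both from the brightest probe sets. For MLH3, EXO1, the MSH5 and the PMS2 probe set the excess was 2.56 ± 0.26, 2.75 ± 0.31, 2.65 ± 0.24 and 3.10 ± 0.16. Each of these 6 differences had a two-sided exact permutation p of 0.1, the smallest that 3 against 3 arrays allow, so that none could pass a threshold of 0.05, and 0.1 after adjustment over the 6.

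The steps downstream of the MutS and MutL complexes were read in a list of 17 excision and resynthesis genes, all tested. Of these, 4 rose and 0 fell, where 7.37% of all genes rose and 5.05% fell. The median change was 0.29, against 0.02 over all genes, and it is the value of EXO1, which the list includes. FEN1, the flap endonuclease, rose 2.57-fold (1.36 ± 0.30, adjusted p = 0.0211), from 47.4, 36.2 and 101.2 to 151.6, 133.9 and 145.7. RFC4, a subunit of the clamp loader, rose 1.74-fold, and POLD3, a subunit of DNA polymerase delta, rose 1.67-fold. PCNA, the sliding clamp, rose 1.48-fold (0.57 ± 0.13), from 141.0, 121.0 and 169.5 to 208.8, 207.0 and 217.7. LIG1, the ligase of this step, was at 0.64 ± 0.22 and did not pass (adjusted p = 0.10). The other clamp loader subunits did not pass, with RFC5 at 0.60 ± 0.21, RFC1 at 0.16 ± 0.14, RFC3 at -0.06 ± 0.15 and RFC2 at -0.31 ± 0.16. These genes serve DNA replication as well as repair. Without resistant array 1, 2 or 3 the count was 0, without parental array 1 or 2 it was 1 and 2, and without parental array 3 it was 8.

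No mismatch-related glycosylase passed the test, of 5 tested (median 0.04). At an unadjusted p below 0.05, 2 were higher, as were 2051 of all 11849 genes, while 1597 of all were lower. UNG, which removes uracil from DNA, was at 0.66 ± 0.20 (adjusted p = 0.0589), and MUTYH, which removes adenine opposite oxidised guanine, was at 0.52 ± 0.18 (adjusted p = 0.0924). Among 5 accessory factors of mismatch repair 0 passed (median -0.03). Here 1 was lower at an unadjusted p below 0.05, against the same counts over all genes. MCM8 was at 0.26 ± 0.21 and HMGB1 at -0.26 ± 0.10 (adjusted p = 0.111) on their brightest probe sets. Of the 5 tested probe sets of HMGB1, a chromatin protein, 3 fell.

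Because MSH6 and the excision genes are expressed with DNA replication, genes of S phase and of mitosis were listed too. Of 22 S phase genes 8 rose and 0 fell, where 7.37% of all genes rose and 5.05% fell. All 22 had a positive change, as had 6104 of all 11849 genes, and the median was 0.80. MCM6 and MCM4, of the replicative helicase, rose 2.80-fold and 2.20-fold on their brightest probe sets. This was 1 of 2 tested probe sets for MCM6 and 1 of 4 for MCM4. CDT1, which licenses origins, rose 2.28-fold (1.19 ± 0.17, adjusted p = 0.00311), and E2F1, a transcription factor of S phase genes, rose 2.14-fold. Both CDT1 and E2F1 rose on 1 of 2 tested probe sets. Of 15 mitosis genes 0 rose and 3 fell, against the same shares of all genes, and the median was -0.17. At an unadjusted p below 0.05, 1 was higher and 4 were lower, against 2051 and 1597 of all 11849 genes. MKI67, the proliferation antigen, fell by 0.90 on the log2 scale (adjusted p = 0.00474), CCNB1, a mitotic cyclin, by 0.61 and CCNB2 by 0.54. Of the tested probe sets, 2 of 4 fell for MKI67, 2 of 2 for CCNB1 and 1 of 1 for CCNB2. Without parental array 3 the S phase count was 18, and with any other array left out it was 1 to 3. The mitosis count was 1 without parental array 1 or any one of the resistant arrays.

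Array by array, MSH6 and the median of the S phase list had a like course. Relative to the mean of parental arrays 1 and 2, the S phase median stood at 0.84 on parental array 3 and at 1.04, 1.06 and 1.19 on the resistant arrays. MSH6 stood at 1.16 on parental array 3 and at 1.43, 1.42 and 1.48 on the resistant ones. The mitosis median was 0.48 on parental array 3 but -0.04, -0.07 and 0.13 on the resistant arrays. Parental array 3 was above both other parental arrays for 16 of the 22 S phase and 11 of the 15 mitosis genes, and for 4140 of all 11849 genes. Against the resistant arrays, it was above all of them for 14 of the 15 mitosis and 3 of the 22 S phase genes. The share of all genes with this order was not computed. The part of the cell cycle lists in the MSH6 result was not tested. EXO1 and the bright PMS1 probe set did not have this course, with parental array 3 at 0.04 and 0.03 above the mean of the other parental arrays. Nor did E2F1 (-0.03) and CDT1 (-0.04), S phase genes outside the 16 counted above.

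**Figure D3:**
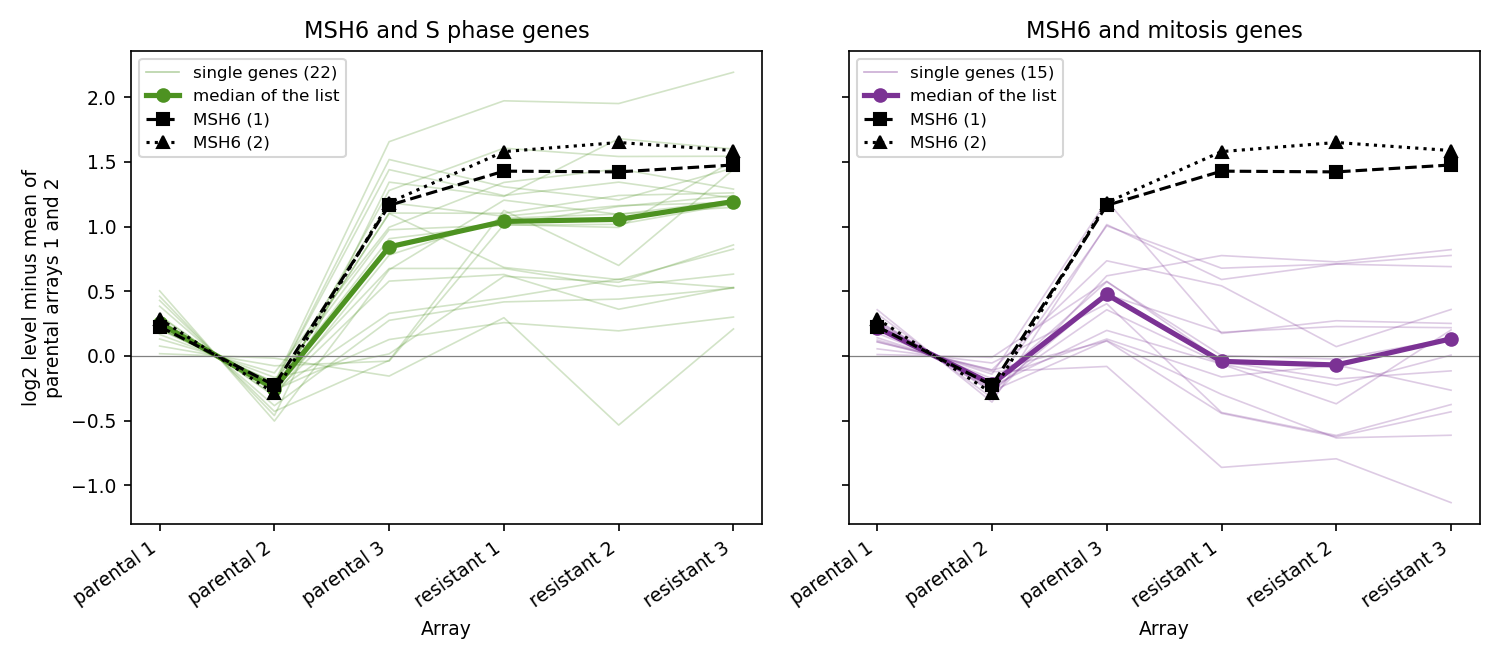
log2 level on each array minus the mean of parental arrays 1 and 2, for both bright MSH6 probe sets (black) with 22 S phase genes (left, green) and 15 mitosis genes (right, purple), thin lines for genes and thick lines for list medians. Lines join values of one gene and carry no order in time. Parental array 3 is raised for MSH6 and for both medians, while the resistant arrays are high for MSH6 and S phase and near 0 for the mitosis median.

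**Figure D4:**
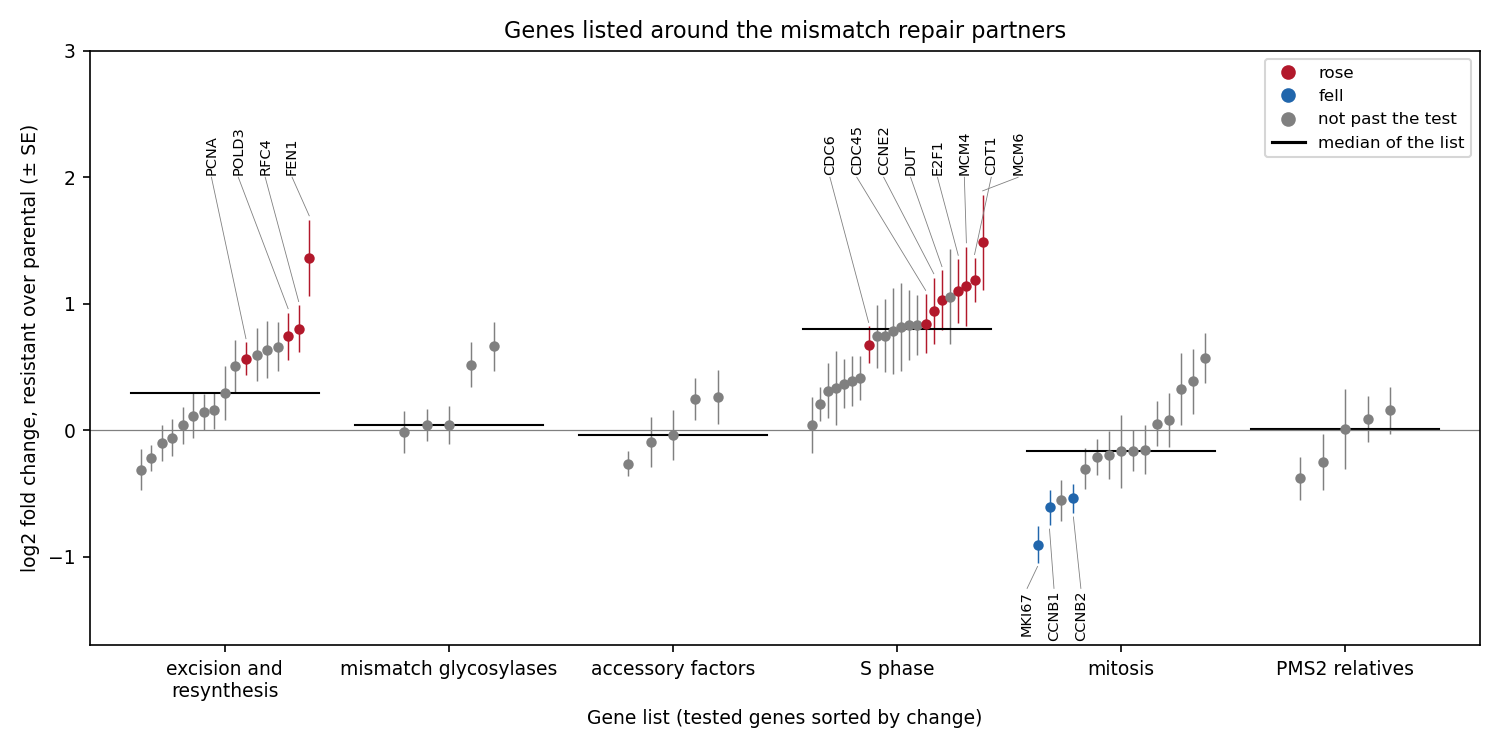
Change of each tested gene by list, as the log2 ratio of resistant to parental cells ± SE, red for genes that rose, blue for genes that fell and grey for the rest, with black lines at list medians. The S phase median is 0.80, the excision and resynthesis median 0.29, and the glycosylase, accessory and PMS2 medians lie between -0.03 and 0.04.

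The nearest tested genes on the chromosome, 3 on each side, mostly did not pass the test around the partners. Of all 11849 tested genes 7.37% rose and 5.05% fell, so that most genes anywhere did not pass. Around MSH3 on chromosome 5, 4 of 6 did, with ZFYVE16 (3.96 ± 0.12), THBS4 and ZCCHC9 up and RASGRF2 down (-1.08 ± 0.25). Beside MSH6 on chromosome 2, FBXO11 rose (0.71 ± 0.19, adjusted p = 0.0432) and MCFD2 fell (-0.82 ± 0.17, adjusted p = 0.0176). EPCAM, TTC7A, FOXN2 and PPP1R21 lay between -0.29 and 0.31 and did not pass. Near PMS1, also on chromosome 2, OSGEPL1 rose 2.35-fold (1.23 ± 0.26, adjusted p = 0.0184). The 5 others there (ORMDL1, ASNSD1, HIBCH, INPP1 and MFSD6) were at -0.44 to 0.40 and did not pass. Around MLH3, PMS2, EXO1 and MSH5 0 of 6 neighbours passed in each case, the largest value being 0.88 ± 0.28 for CHML beside EXO1 (adjusted p = 0.0777).

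The genes most like each member over the 6 arrays were found by Pearson's r of log2 levels, as a description. FDPS, an enzyme of isoprenoid synthesis, MRPS5, a mitochondrial ribosomal protein, and MCM4 were nearest to MSH6 (r = 0.999, 0.999 and 0.998). For PMS1 they were ITGA6, an integrin, EPB41, a membrane skeleton protein, and FBXL4 (0.997, 0.995 and 0.995). EXO1 had DHRSX, CDC25A, a phosphatase of cell cycle entry, and LOC102724851 (0.987, 0.986 and 0.982), and MLH3 had UQCRQ, GPRC5D-AS1 and SLC25A14 (0.987, 0.987 and 0.985). These are the highest values among all tested genes, over only 6 arrays.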

How the data were processed

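The authors deposited one linear signal intensity per probe set and array, made with MAS5 per the submitters' processing notes, with its version and target scale not given in the sources used here. MAS5 subtracts mismatch probes, so low signals are noisy. No detection calls were used, and brightness was judged against the array median. Each value was divided by its array's median and log2 transformed, with exact zeros (10 in the table) set to 0.05. The 62 control probe sets were left out, and those averaging 1 or more times the median were tested.

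Names came from the platform annotation, updated through Entrez to RefSeq GRCh38.p14. Of 54613 probe sets 41091 had 1 symbol, 1801 several and 11721 none, and 41037 with 1 symbol matched RefSeq. A gene was read on its brightest probe set with 1 symbol. Groups came from sample titles. No pair of arrays was identical.

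Arrays were compared in R 4.3.3 with limma 3.58.1 (lmFit and trended eBayes, two-sided tests, Benjamini-Hochberg adjustment), after a test on simulated data. Alternatives were 3 scalings, 2 filters, 2 treatments of low values, no intensity trend, a replicate block, a plain t-test and each array left out. For lists, other ways to represent a gene were added. The plain t-test was an equal-variance t-test on the same log2 levels. The study's own filter and error model were not applied, so counts by the plain t-test do not show what the study's method gives. Named were all members and MSH3, up to 4 genes of a list with the largest changes past the test (the 2 largest as values where fewer than 2 passed), the neighbours and the most alike genes. LIG1, RFC1, RFC2, RFC3, RFC5, the markers and CCNE2, CDC45, CDC6 and DUT in the plot were named after their values were seen. The members, lists and tests were chosen with earlier results of these data known, and the study itself had reported changes of some of these genes. Promoters are RefSeq sequences of GRCh38.p14. Some gene results are not reported here.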

Additional observations from a re-analysis of the deposited data

How the results depend on the processing

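For 30 tested probe sets or genes 476 alternative values were computed, of which 349 kept direction and side of the threshold, 124 kept the direction but lost the call and 3 reversed. For 16 counts 222 of 280 stayed within 1.5 times, 46 were lower and 12 higher. MSH6 on its brightest probe set was no longer past the test with quantile normalization (1.06, adjusted p = 0.0519), scaling to the trimmed mean (1.06, 0.0522) or no filter (1.05, 0.0564). Nor was it past the test with no intensity trend (1.05, 0.128) or by the plain t-test (1.05, 0.252). With single arrays left out its change ranged from 0.75 to 1.44. The 3 member probe sets that rose became 0 with no intensity trend and with the plain t-test. With single arrays left out they became 0 to 3 (1 without parental array 2, 0 without parental array 1 or any one resistant array). The 1528 probe sets that rose and 1135 that fell became 698 and 504 without the trend, and 198 and 121 by the plain t-test. With single arrays left out they became 476 to 3586 and 393 to 3518. The highest counts were those without parental array 3.

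S phase genes that rose numbered 5 with quantile normalization, the trimmed mean, no filter and without probe sets that share probes. They numbered 4 with averaged probe sets, 1 without the trend, 0 by the plain t-test and 1 to 18 with single arrays left out. For excision and resynthesis the counts were 0 without the trend and by the plain t-test, and 0 to 8 with single arrays left out. Mitosis genes that fell numbered 1 without the trend, 0 by the plain t-test and 1 to 4 with single arrays left out. In the last case 0 to 3 rose. An accessory factor fell (1 gene) with quantile normalization, no further scaling, averaged probe sets and without shared probe sets, and 0 to 1 with single arrays left out. Deviations of same-numbered arrays from their group means correlated at -0.018, -0.022 and -0.016, so no shared shift by replicate number was seen. Whether same-numbered arrays were prepared together is not stated, and these values cannot decide it. With the replicate block 1 glycosylase rose (0 to 1 with single arrays left out), 2 member probe sets rose, and 1265 probe sets rose and 828 fell. The 3 reversals were an MLH3 probe set without parental array 1 (0.03) and without resistant array 2 (0.28), whose range with single arrays left out was -0.25 to 0.28, and the brighter PMS2 and PMS2CL probe set without parental array 3 (0.080), with a range of -0.16 to 0.080, none past the test. Of the 66 values for the difference between MSH3 and a member 18 equalled the reported one, since array scaling cancels within an array and no low value was involved, and that with MSH6 ranged from 1.63 to 2.33. The cause of these shifts was not tested. Precision was limited by 3 arrays per group, and by signals near the array median for the dim PMS1 probe sets.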
